A study of Oryza sativa with 36 samples.

Results

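A small set of 32 probe sets was lower in drought-stressed young panicles of each of 6 rice varieties, out of 57194 probe sets on the Affymetrix Rice Genome Array after its control probe sets were left out. A probe set is a group of short probes that reads the RNA of a gene, and its deposited value is an intensity on a linear scale. The members were selected on these same arrays. A probe set entered when its log2 change, the mean of 3 drought-stressed minus the mean of 3 well watered log2 intensities, was -0.5 or lower in each variety and its mean log2 intensity over the 36 arrays was at least 5. These thresholds were met by 34 probe sets, of which the copper transporter COPT5.1 and 1 unnamed probe set were left out. The opposite pattern, a rise of 0.5 or more in each variety with the same intensity limit, was shown by 253 probe sets. Because the drought changes chose the members, the changes below are descriptions, and calls of the members for drought are counted only to show their size against the spread between arrays.

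The arrays measured total RNA of whole young panicles 2 cm in length, taken from plants in cement enclosed plots that were either kept well watered or drained at late tillering and left to dry. MILT1444, EMATAYIN, DOURADOAGULHA and HUHAN3 were the drought tolerant varieties, and KHAUMEO and NIPPONBARE the drought sensitive ones. DOURADOAGULHA and KHAUMEO are indica varieties and the other 4 are japonica. Each variety and treatment had 3 arrays, which gave 12 groups, and no plant ages or numbers of plants in a sample are given in the sources used here. Since each array read a whole panicle, fewer cells of a type and less RNA per cell cannot be told apart in any value below.

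A young panicle imports sucrose and uses it to build branches, flowers and pollen mother cells. Cell wall invertases and sucrose synthases split the sucrose that arrives, the invertases into glucose and fructose and the sucrose synthases into fructose and UDP-glucose. Trehalose 6-phosphate, a sugar phosphate that reports sucrose status in plants, is made from UDP-glucose and removed by trehalose 6-phosphate phosphatases. Genes of these steps were among the members with a known name. The names reached 20 members. A symbol or synonym was held by 6 members, namely CIN2, TPP1, LTR1, SUS3, SUS1 and RPA70B. Another 4 were known by a rice locus and 10 only by a RefSeq gene number, and the remaining 12 stayed unnamed here.

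The falls were small for most members and very large for a few. The average change over the varieties had a median of -0.84 on the log2 scale, and 9 members fell at least 2-fold on average. Only 4 members were at least 2-fold lower in each of the 6 varieties, and 11 did not reach 2-fold in any variety. The span between varieties was widest for LOC_Os03g03724, at 1.92, for CIN2, at 1.82, and for LOC_Os11g06900, at 1.63. It was narrowest for LOC4339466, at 0.15, for LOC4329743, at 0.17, and for OsAffx.10565.2.A1_at, at 0.22. The rule kept every change at -0.5 or lower, which narrows the span of members with small falls. The SE of the change in a single variety was 0.40, 0.16 and 0.23 for these members in that order. Equal falls in the varieties therefore cannot be read from these spans.

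**Figure D1:**
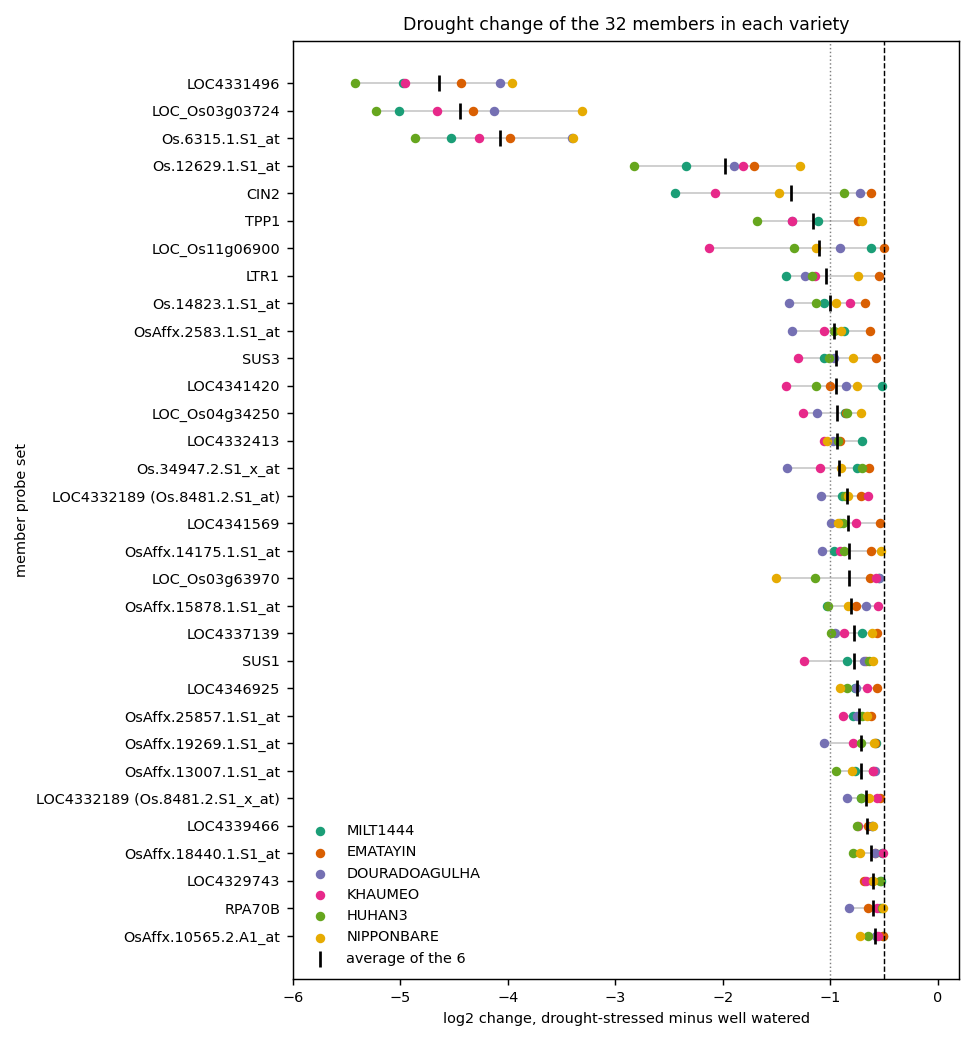
Log2 change under drought (x axis, drought-stressed minus well watered) of each of the 32 members (y axis), with a point for each variety, a black tick for the average and dashed and dotted lines at -0.5 and -1. The first 3 members lie between -5.42 and -3.31, far to the left of the other members.

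The sizes differed between varieties. From the largest to the smallest, the median member change was -0.96 in DOURADOAGULHA, -0.91 in HUHAN3, -0.89 in KHAUMEO, -0.82 in MILT1444, -0.79 in NIPPONBARE and -0.64 in EMATAYIN, while the median over all probe sets lay between -0.04 and 0.01. EMATAYIN gave the smallest fall of the 6 varieties for 13 members and NIPPONBARE for 10. The largest fall was in DOURADOAGULHA for 9 members, in HUHAN3 for 9 and in KHAUMEO for 7. KHAUMEO had 15 members at least 2-fold lower, DOURADOAGULHA 13, HUHAN3 12, MILT1444 10, NIPPONBARE 8 and EMATAYIN 5. Neither the tolerant nor the sensitive varieties stood together in these orders. The order of the medians did not hold when replicates were left out. Without replicate 1 of each group KHAUMEO had the largest median change, at -1.22, and without replicate 3 it had the smallest, at -0.57, while EMATAYIN moved to -0.91.

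The spread between the 3 arrays of a group was wide against many of these falls. The 3 drought arrays lay below the 3 well watered arrays for 21 of 32 members in MILT1444, where 9.87% of all probe sets did so, and for 14 in EMATAYIN, where 8.26% did. The same count was 23 in DOURADOAGULHA beside 11.6% of all probe sets, 21 in KHAUMEO beside 10.4%, 21 in HUHAN3 beside 12.5% and 24 in NIPPONBARE beside 17.4%. The treatments were apart in this direction in all 6 varieties for 7 members, as for 0.185% of all probe sets, and in none for 3 members, as for 61% of all probe sets. The fit across all probe sets (limma, 2-fold or more with an adjusted p up to 0.05) called 8 members lower in MILT1444 against 0.0559% of all probe sets, 3 in EMATAYIN against 0.0122% and 9 in DOURADOAGULHA against 0.0839%. It called 10 in KHAUMEO against 0.0927%, 7 in HUHAN3 against 0.0699% and 5 in NIPPONBARE against 0.117%. In the average response 9 members were called, where 0.042% of all probe sets were called lower, and 3 members were called in all 6 varieties, where 0.00699% were. No variety called 17 of the members. These counts follow from the selection and are read no further.

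The membership of this set also rested on single arrays. When the drought-stressed replicate 1 of EMATAYIN was left out, 18 probe sets met the same thresholds, 14 of them members. When its drought-stressed replicate 3 was left out, 54 did, 31 of them members.

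The 2 largest falls belonged to LOC4331496 and LOC_Os03g03724. LOC4331496 is a long non-coding RNA gene in the RefSeq annotation ASM3414082v1 of japonica rice, where its span lies inside that of the protein-coding gene LOC9269331 on chromosome 3. Its intensity ran from 110 to 2008 on the 18 well watered arrays, with a median of 968. On the 18 drought arrays it ran from 15.2 to 103, with a median of 32.04. No drought array reached the lowest well watered array of any variety. On average it fell by 4.64 ± 0.23 on the log2 scale (SE of the fit over 36 arrays), or 24.9-fold, and the varieties ranged from -3.96 in NIPPONBARE to -5.42 in HUHAN3.

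LOC_Os03g03724 is described only as an expressed protein in the study's primer list, and it was among the genes that the study measured by qRT-PCR. Its primers are printed because they define the stretch of transcript that the PCR amplified. Written 5′ to 3′ with no base marked, the pair is
LOC_Os03g03724 forward primer: gcagtggattcaggacaacg
LOC_Os03g03724 reverse primer: cgcatctaatccccgatctg
On the arrays its intensity ran from 277 to 3894, with a median of 2137, in the well watered panicles. In the drought-stressed panicles it ran from 35.9 to 241, with a median of 90.6. Again the 18 drought arrays were all below the 18 well watered ones. On average it fell by 4.44 ± 0.24 on the log2 scale, or 21.8-fold. Its probe set carries the suffix x, which marks probes that may also match related transcripts. By its locus number it belongs to the interval of chromosome 3 between LOC4331437 and LOC4331509, which also holds LOC4331496 among 86 RefSeq genes, and whether these probe sets read the same transcript was not tested.

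The well watered DOURADOAGULHA arrays were the least uniform for both genes. LOC4331496 read 1422, 259 and 110 on its 3 replicates, whereas the drought arrays of that variety read 15.2, 23.7 and 23.4. LOC_Os03g03724 read 3888, 1294 and 277 on the same 3 well watered arrays and 35.9, 82.4 and 88.3 under drought. The order of the 3 well watered arrays was thus the same for both, and the treatments did not overlap in spite of it.

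The next 2 members have no name here. Os.6315.1.S1_at ran from 79.0 to 1061 on the well watered arrays, with a median of 311, and from 10.5 to 38.2 under drought, with a median of 18.8. On average it fell by 4.07 ± 0.18 on the log2 scale, or 16.8-fold, with no overlap between the 18 arrays of either treatment. Os.12629.1.S1_at ran from 82.9 to 573 with a median of 211 when well watered, and from 35.0 to 164 with a median of 47.9 under drought. Within each variety its drought arrays were below its well watered arrays, but over the varieties 14 of its 18 drought arrays were below every well watered one. On average it fell by 1.98 ± 0.19 on the log2 scale.

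**Figure D2:**
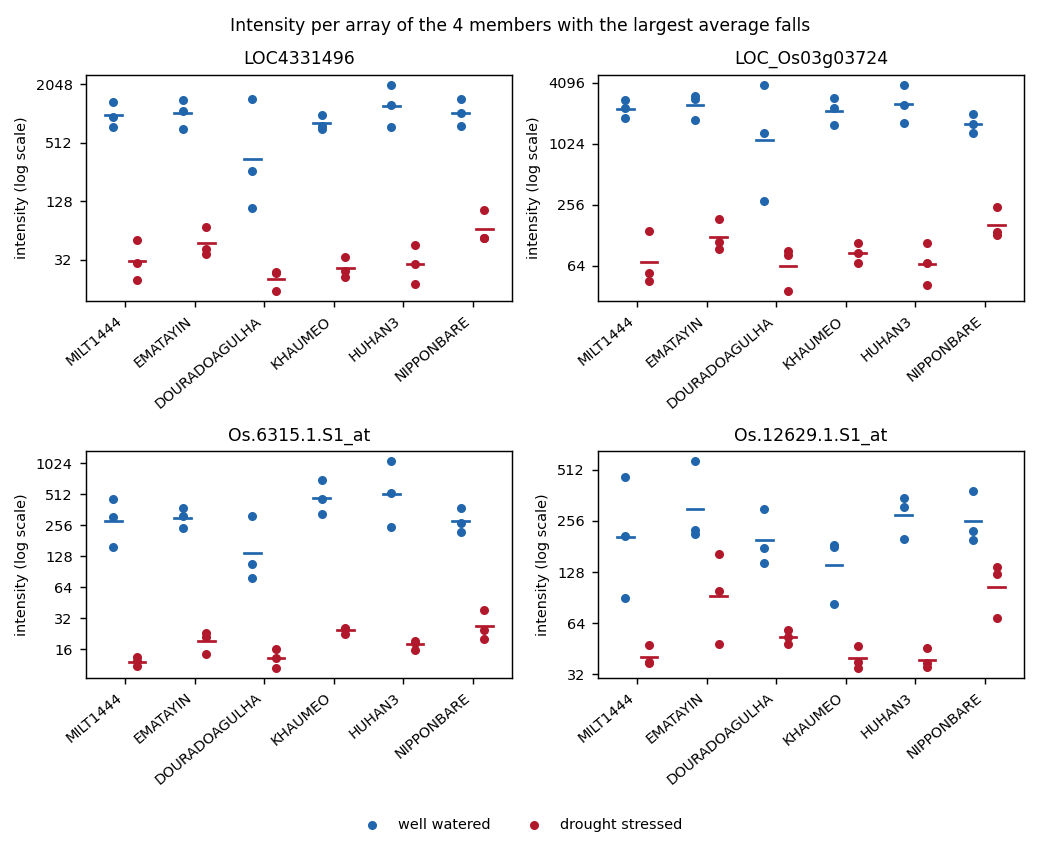
Intensity on each array (y axis, log scale) of the 4 members with the largest average falls, by variety (x axis), with blue points for the 3 well watered and red points for the 3 drought-stressed arrays and a bar at the mean of the log2 values. For LOC4331496, LOC_Os03g03724 and Os.6315.1.S1_at the red points of all varieties lie below all blue points, at most 103, 241 and 38.2.

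The sugar genes among the members were CIN2, SUS1, SUS3 and TPP1. CIN2, also named GIF1, is a cell wall invertase known in rice for its part in grain filling, and its average change was -1.37 ± 0.14 on the log2 scale. Its fall was deepest in MILT1444 and KHAUMEO, at -2.44 and -2.07, with the single arrays as follows. In MILT1444 the intensity of CIN2 was 1426, 1420 and 1583 when well watered and 182, 216 and 507 under drought. In KHAUMEO it was 598, 693 and 570 when well watered and 159, 129 and 155 under drought. In NIPPONBARE it was 1931, 1918 and 2171 when well watered and 525, 931 and 761 under drought. The treatments were apart in these 3 varieties, of which 1 is tolerant and 2 are sensitive. In EMATAYIN the CIN2 values were 2178, 1868 and 2459 against 962, 1317 and 2143 under drought. In HUHAN3 they were 1763, 2014 and 2548 against 690, 1057 and 2015, and in DOURADOAGULHA 497, 809 and 989 against 413, 386 and 553. In each of the last 3 varieties 1 drought array of CIN2 reached into the well watered range, and the changes were only -0.63, -0.87 and -0.72.

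SUS1 and SUS3 encode sucrose synthases, and both fell most in KHAUMEO. SUS1 ran from 1796 to 3554 with a median of 2277 on the well watered arrays and from 716 to 2108 with a median of 1335 on the drought arrays. Its change was -1.25 in KHAUMEO and between -0.84 and -0.61 in the other varieties, with an average of -0.78 ± 0.09. This SUS1 probe set also carries the suffix x. SUS3 ran from 87.9 to 342 with a median of 155 when well watered and from 51.6 to 166 with a median of 73.7 under drought. Its change was -1.30 in KHAUMEO and between -1.06 and -0.58 elsewhere, with an average of -0.95 ± 0.10. For both genes the treatments overlapped in EMATAYIN and in 1 other variety, HUHAN3 for SUS1 and NIPPONBARE for SUS3.

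TPP1, a trehalose 6-phosphate phosphatase, had an average change of -1.16 ± 0.35. Its arrays scattered much more than those of the sucrose genes. In HUHAN3 it read 363, 197 and 2153 when well watered and 94.1, 86.5 and 577 under drought. In NIPPONBARE it read 319, 1844 and 308 when well watered and 104, 365 and 1100 under drought. In KHAUMEO it read 62.0, 118 and 123 when well watered and 32.4, 46.1 and 36.2 under drought. Only in KHAUMEO and DOURADOAGULHA were the treatments apart for TPP1.

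**Figure D3:**
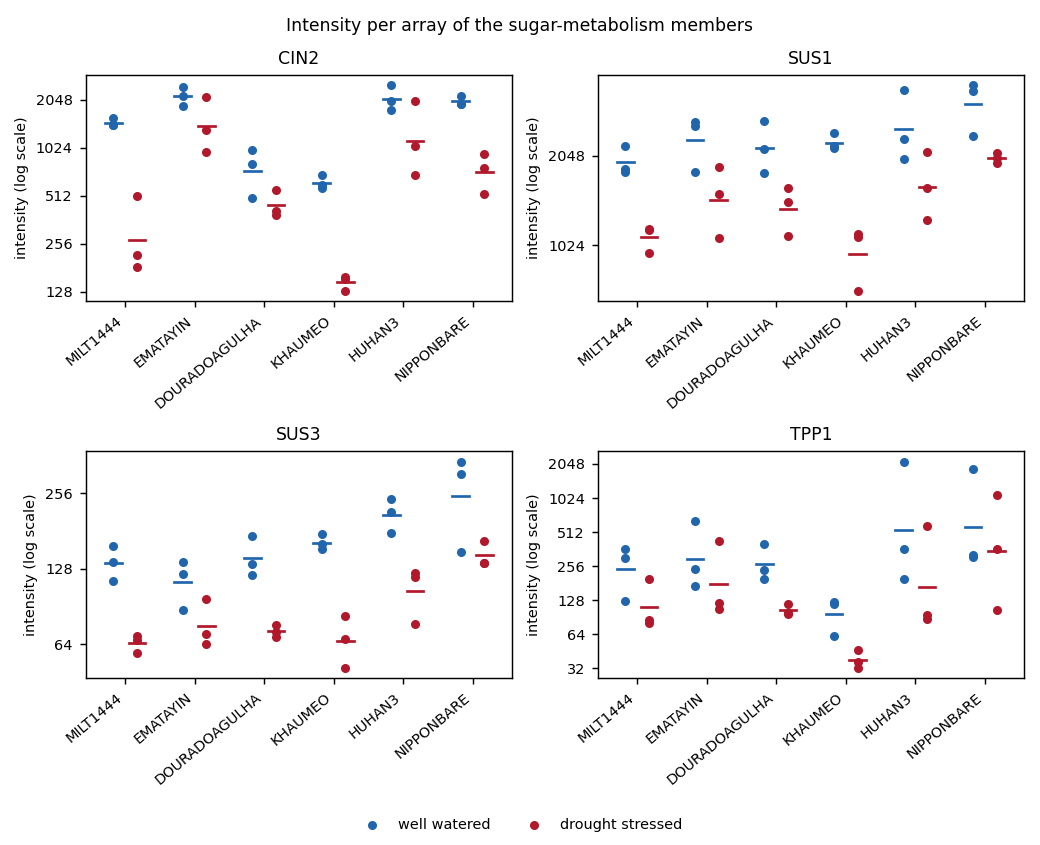
Intensity on each array (y axis, log scale) of CIN2, SUS1, SUS3 and TPP1 by variety (x axis), with blue points for well watered and red points for drought-stressed arrays and a bar at the mean of the log2 values. CIN2 shows its widest gaps in MILT1444 and KHAUMEO, and in NIPPONBARE the highest drought array of TPP1, at 1100, lies above 2 of the 3 well watered arrays.

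The related genes on the array did not move as one. Among 13 probe sets of 11 invertase and sucrose synthase genes with a symbol, members included, 1 was called higher and 1 lower in the average response at 2-fold, against 195 higher and 24 lower among all 57194 probe sets. Among the 10 of these that were not members, 1 was higher and 2 were lower by adjusted p alone, where the shares over all probe sets were 20.6% higher and 21.5% lower, and 1 of the 2 reads the member gene SUS1. The median change of the 13 was -0.06 against -0.01 over all probe sets. SUS4 rose, by 1.05 ± 0.10 (limma adjusted p = 2.4e-08), and it was higher in all 6 varieties. SUS2 had a change of -0.04 ± 0.04 and the invertase gene CIN1 one of -0.06 ± 0.10, and neither passed the test. Of 9 probe sets of 8 trehalose 6-phosphate phosphatase genes, TPP1 was a member, and among the other 8, 4 rose and 0 fell by adjusted p, beside the same 20.6% and 21.5% of all probe sets. The 4 that rose were TPP3, by 1.19 ± 0.11, TPP4, by 0.87 ± 0.12, TPP9, by 0.80 ± 0.14, and TPP2, by 0.41 ± 0.07, and the median over the 9 was 0.09. TPP2, TPP3, TPP4 and TPP9 were each higher in all 6 varieties, whereas TPP1 had been selected for being lower in each.

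LTR1, also named MYB4, encodes a MYB transcription factor that is known for its link to cold response in rice. It ran from 106 to 2433 with a median of 597 on the well watered arrays and from 79.3 to 1211 with a median of 217 on the drought arrays. Its average change was -1.04 ± 0.33, and the treatments were apart only in DOURADOAGULHA and KHAUMEO. In MILT1444 the LTR1 arrays read 362, 2212 and 839 when well watered and 526, 210 and 323 under drought. In EMATAYIN they read 2433, 191 and 253 against 150, 354 and 711. The mean fell in these varieties while individual arrays crossed.

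RPA70B encodes a large subunit of replication protein A, which binds single-stranded DNA during replication, repair and meiosis. It ran from 1014 to 2529 with a median of 1677 when well watered and from 632 to 2100 with a median of 1041 under drought. The average change was -0.60 ± 0.11, from -0.83 in DOURADOAGULHA to -0.51 in NIPPONBARE. Among the other 6 replication protein A genes on the array, 1 rose and 4 fell by adjusted p, none of them 2-fold, beside 20.6% and 21.5% of all probe sets. RPA32A fell by 0.53 and RPA32C rose by 0.27, whereas RPA70A had a change of 0.03 ± 0.04 that did not pass the test.

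Besides LOC_Os03g03724, 3 members were known by a locus. LOC_Os11g06900, annotated as an amidase family protein, ran from 283 to 1691 with a median of 693 when well watered and from 98.1 to 779 with a median of 258 under drought. Its fall was deepest in KHAUMEO, at -2.13, where it read 508, 694 and 692 when well watered and 98.1, 206 and 144 under drought. In EMATAYIN it read 548, 530 and 494 against 224, 336 and 671, and its change of -0.50 there was the closest of any member to the threshold. LOC_Os04g34250 had an average change of -0.94 ± 0.16 and LOC_Os03g63970 one of -0.83 ± 0.14. The latter fell most in NIPPONBARE, at -1.51, and HUHAN3, at -1.14, and by 0.55 to 0.63 in the other 4 varieties.

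Among the members known only by RefSeq number, LOC4341420, LOC4332413 and LOC4332189 had average falls that were smaller than the residual SD of their arrays, which ran from 0.85 to 1.36. LOC4341420 ran from 102 to 3381 with a median of 1025 on the well watered arrays and from 101 to 2800 with a median of 378 on the drought arrays. Its treatments were apart in none of the varieties, and its average change was -0.95 ± 0.42. In MILT1444 it read 102, 339 and 3028 when well watered and 322, 185 and 588 under drought. LOC4332413 read 530, 1129 and 3054 against 322, 314 and 2621 in HUHAN3, with an average change of -0.94 ± 0.33. For the 2 probe sets of LOC4332189 the average changes were -0.84 ± 0.29 and -0.67 ± 0.26, and no variety kept the treatments apart. LOC4339466 had an average change of -0.66 ± 0.16 with a residual SD of 0.52.

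The falls of LOC4341569, LOC4337139, LOC4346925 and LOC4329743 were more regular. Their average changes were -0.84 ± 0.11, -0.78 ± 0.09, -0.75 ± 0.10 and -0.61 ± 0.07. The treatments were apart in 4, 4, 5 and 6 varieties in that order. LOC4329743 had the smallest change of these, yet its arrays separated most often.

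The unnamed members were 8 with an OsAffx number and 4 with an Os number. Os.14823.1.S1_at had an average change of -1.003 ± 0.12, OsAffx.2583.1.S1_at of -0.97 ± 0.11 and Os.34947.2.S1_x_at of -0.92 ± 0.11, and each fell most in DOURADOAGULHA, at -1.39, -1.36 and -1.40. The other 7 OsAffx members had average changes from -0.83 to -0.59. OsAffx.25857.1.S1_at and OsAffx.19269.1.S1_at kept the treatments apart in all 6 varieties although their average changes were only -0.73 ± 0.08 and -0.72 ± 0.09. Probe sets with an OsAffx number made up 25% of the members and 44.6% of all probe sets. Among the 17 members with a single RefSeq gene, 7 lie on chromosome 3, or 41.2%, against 13.4% of all probe sets with a single gene, and 2 of the 7 read the same gene.

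Other probe sets of the members' genes gave a second reading of a few. The other LTR1 probe set had an average change of -0.60, with -0.04 in KHAUMEO, and the other SUS1 probe set one of -0.58, with -0.39 in NIPPONBARE, so both fell short of the threshold in at least 1 variety. Another probe set of LOC4332189 gave -0.45. For LOC4341569 the other 2 probe sets gave 0.15 and 0.14, and the second of them ranged from -0.43 in NIPPONBARE to 0.82 in DOURADOAGULHA. The fall of LOC4341569 was therefore read by 1 of its 3 probe sets. For LOC4346925 the other probe set gave -0.19 and for LOC_Os03g63970 -0.16, the latter at a mean log2 intensity of only 3.59.

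The selection used the mean level over the 36 arrays, with its lower limit of 5, but not the differences in level between varieties, which were tested. The spread in this test is that between arrays, so it speaks of these 6 varieties and not of indica or japonica rice at large. The study states that the array was designed on the annotation of Nipponbare, a japonica variety. Poorer probe match in other varieties was not tested, and it cannot be told apart from lower RNA in these levels. In the limma fit 5 members were called lower in the indica than in the japonica varieties, where 4.47% of all probe sets were, and 0 members were called higher, where 1.38% were. The difference, indica minus japonica, was -1.52 ± 0.15 on the log2 scale for CIN2 (adjusted p = 5.5e-10) and -1.24 ± 0.15 for LOC_Os03g63970 (adjusted p = 9.6e-08). It was -1.41 ± 0.37 for TPP1 (adjusted p = 0.0025), -1.35 ± 0.35 for LTR1 (adjusted p = 0.0023) and -1.48 ± 0.45 for LOC4341420 (adjusted p = 0.0087). By adjusted p alone, 18 members differed in either direction, where 42.2% of all probe sets did. Among the 6 varieties taken separately, 17 members differed by the F test (adjusted p of at most 0.05), which is close to the 48.6% of all probe sets that did.

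The order of the variety levels shows how far these differences reached. For CIN2 the mean log2 intensity was 8.23 in KHAUMEO, 9.16 in DOURADOAGULHA, 9.30 in MILT1444, 10.23 in NIPPONBARE, 10.59 in HUHAN3 and 10.76 in EMATAYIN. The indica variety DOURADOAGULHA and the japonica variety MILT1444 were thus neighbours that differed by less than the residual SD of CIN2, 0.43. These levels average both treatments, and CIN2 changed by -2.44 under drought in MILT1444 and by -0.72 in DOURADOAGULHA. When well watered, CIN2 was higher on all MILT1444 arrays than on any DOURADOAGULHA array, whereas the drought arrays overlapped. For TPP1 the lowest level was 5.92 in KHAUMEO, and MILT1444 and DOURADOAGULHA followed at 7.35 and 7.38, with the japonica variety below the indica one. For LTR1 KHAUMEO was lowest at 7.08 and NIPPONBARE highest at 9.53. For LOC_Os03g63970 the 2 indica varieties, at 7.58 and 8.12, were below the 4 japonica ones, which began at 8.74. KHAUMEO was the lowest variety for each of the 5 called members. An exact permutation test over the 6 variety means, two-sided over 15 ways to choose 2 of 6, gave p = 0.0667 for CIN2, LTR1 and LOC_Os03g63970 and p = 0.1333 for TPP1 and LOC4341420, where 0.0667 is the smallest p it can give.

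**Figure D4:**
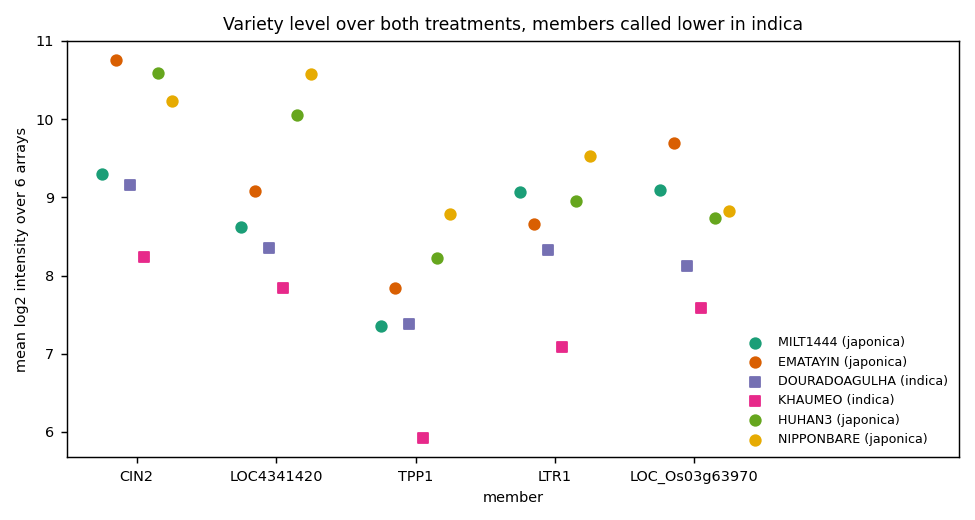
Mean log2 intensity over the 6 arrays of a variety (y axis) for the 5 members called lower in the indica varieties (x axis), with squares for indica and circles for japonica varieties. KHAUMEO is lowest in each, and for TPP1 the square of DOURADOAGULHA, at 7.38, lies beside MILT1444, at 7.35.

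Between the tolerant and the sensitive varieties, 0 members were called higher, where 1.08% of all probe sets were, and 0 lower, where 1.25% were. In the same limma fit 6 members passed by adjusted p without the fold threshold, where 18.9% of all probe sets did, and 7 had an unadjusted p under 0.05, where 28.6% did. Neither count exceeded its background share. CIN2 was higher in the tolerant varieties by 0.72 ± 0.15 (adjusted p = 0.00039) and LOC_Os03g63970 by 0.71 ± 0.15 (adjusted p = 0.00093). Os.34947.2.S1_x_at was lower there by a difference of -0.47 ± 0.12 (adjusted p = 0.0042) and Os.6315.1.S1_at by one of -0.56 ± 0.19 (adjusted p = 0.035). SUS3 was also lower in the tolerant varieties, by a difference of -0.40 ± 0.10 (adjusted p = 0.0055). RPA70B was higher in them by 0.32 ± 0.11 (adjusted p = 0.046). LTR1 gave a difference of 0.45 ± 0.35 that did not pass (adjusted p = 0.45). The sensitive varieties were far apart for CIN2, with KHAUMEO at 8.23 and NIPPONBARE at 10.23. These adjusted p-values rest on the spread between arrays, not between varieties. The exact permutation test over the 6 variety means gave p = 0.4 for both CIN2 and LOC_Os03g63970. The same exact permutation test gave p = 0.3333 for Os.34947.2.S1_x_at and SUS3 and p = 0.2667 for Os.6315.1.S1_at and RPA70B. For none of these members did the levels of the tolerant and the sensitive varieties stand apart.

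Members also varied together from array to array within a group. The residual SD of the log2 values had a median of 0.36 over the members and 0.21 over all probe sets, and it reached 1.36 for LOC4341420. After each array's group mean was taken away, the 496 pairs of members had a median Pearson r of 0.28 over 36 arrays, from -0.64 to 0.99. These arrays share their RNA preparations and scaling, so the correlations are given as a description. The pair at 0.99 was the 2 probe sets of LOC4332189. LOC4331496 and LOC_Os03g03724 deviated together at r = 0.93 (Spearman rho = 0.88), which stayed at 0.86 without the 2 arrays farthest from the median. Os.6315.1.S1_at followed LOC4331496 at r = 0.61, or 0.41 without the 2 farthest arrays.

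Another block of shared deviations joined LOC4341420, LOC4332413, LOC4332189 and LOC4339466. LOC4341420 and LOC4332413 gave r = 0.95, LOC4332413 and LOC4339466 r = 0.91, and LOC_Os04g34250 and RPA70B r = 0.82. CIN2 went against LOC4331496 at r = -0.55. LOC_Os03g03724 deviated against this block, at r = -0.51 with LOC4341420, -0.53 with LOC4332413 and -0.61 with LOC4339466.

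**Figure D5:**
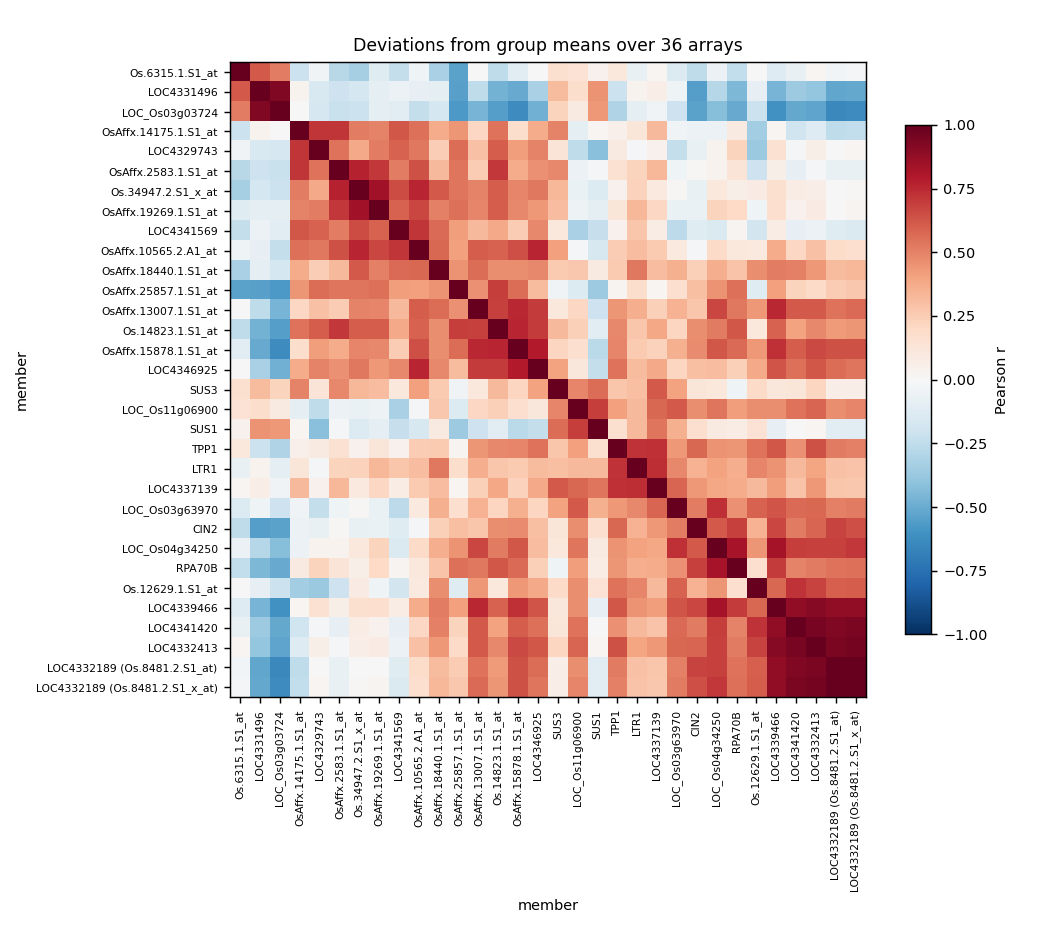
Pearson r of the deviations from group means over 36 arrays (colour scale from -1 to 1) for each pair of the 32 members, which are ordered on both axes by average linkage. A red block of LOC4339466, LOC4341420, LOC4332413 and LOC4332189 stands at the lower right, and the cells that pair it with LOC4331496 and LOC_Os03g03724 are blue.

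Markers of the tissue were checked in the same fit. The mean log2 intensity of 21 probe sets of floral organ genes, mostly MADS-box regulators, lay between 10.50 and 10.88 in the 12 groups. None of the 21 was called at 2-fold in the average response. By adjusted p 4 were higher and 0 lower, beside 20.6% higher and 21.5% lower among all probe sets. Green tissue genes (8 probe sets) lay between 7.32 and 8.11, and none passed the test in the average response. Their mean did not move alike in the varieties. It was 0.60 higher under drought in MILT1444 and changed by -0.49 in KHAUMEO, with changes from -0.23 to 0.09 in the other varieties. Of the bright markers, CAB2R and PSAH moved further than this mean, and RBCS did not. CAB2R changed by 0.84 and 1.11 on its probe sets in MILT1444 and by -0.91 and -1.22 in KHAUMEO, and PSAH by 0.71 and -1.15. The brightest RBCS probe set, at a mean log2 intensity of 10.77, changed by 0.58 in MILT1444 and -0.21 in KHAUMEO. The mean also holds dim probe sets, such as RBCS1 at a mean log2 intensity of 2.79, which changed by -0.05 in MILT1444 and 0.19 in KHAUMEO. MILT1444 and KHAUMEO were also the varieties with the deepest falls of CIN2, and the part of green tissue in any fall was not tested. Meiosis genes (8 probe sets) lay between 7.38 and 8.06, with 5 higher and 1 lower by adjusted p and a median change of 0.15, where the shares over all probe sets were 20.6% higher and 21.5% lower. Tapetum and pollen wall genes (7 probe sets) lay between 6.46 and 8.07, with a median change of -0.18. The change of their mean ran from -0.37 in KHAUMEO to 0.19 in DOURADOAGULHA. By adjusted p 2 of them were lower, beside the same 21.5% of all probe sets, and their part in the falls of the members was not tested. The members just inside the threshold were LOC_Os11g06900, OsAffx.10565.2.A1_at and OsAffx.18440.1.S1_at, with changes of -0.50, -0.51 and -0.51 in the variety where they fell least. The probe sets just outside it were LOC4344010, OsAffx.26320.1.S1_at and LOC4329612, each at -0.50 after rounding.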

How the data were processed

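RNA of young panicles from 6 rice varieties under 2 treatments was read on 36 arrays. The authors used RMA, as implemented in affy, for normalization and limma for their own comparisons (versions: not given in the sources used here). Each deposited value is a linear intensity, from 1.0 to 21699. How RMA output became linear was not stated. Array medians lay between 55.8 and 68.9, and 3 arrays a group limit the precision. The study calls the 3 replicates biological and independent. No label gives the plants behind each, so p-values measure the spread between these arrays.

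After log2 transformation and removal of 187 control probe sets, 57194 remained. A linear model of 12 group means was fitted with limma 3.58.1 (R 4.3.3) and default eBayes moderation. Benjamini-Hochberg adjustment was applied contrast by contrast. The contrasts were the drought change in each variety, their average, and the variety levels over both treatments. Tables and figures were made with pandas 2.3.3, numpy 2.4.6 and matplotlib 3.10.9.

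Probe sets were named through the platform annotation and RefSeq, which give a single gene for 22436 probe sets, and through loci whose fold changes in the study's table matched those of a single probe set within a relative tolerance of 0.0001 (756 of 783). Gene lists were matched by symbol or synonym, after lists by description could not be applied because the annotation used holds no descriptions, and genes of another function with the same synonym were taken out. The text names members with a symbol, description or locus, the 10 largest average falls, the 3 probe sets on each side of the threshold, the widest and narrowest spans, and the 5 largest level differences. The choice to name members known only by RefSeq number was made with their values in view. The members and lists were chosen with earlier results of these data known. Alternatives were other scalings, floors, thresholds, eBayes settings, replicate blocks, single-variety fits and left-out arrays. Leaving out each array in the calls was chosen after seeing the data. QRT-PCR values were not used here.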

Additional observations from a re-analysis of the deposited data

How the results depend on the processing

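The limit for a move was 1.5 times the value, or the spread between arrays for a median. The number of probe sets and every count of calls passed this limit under some of the alternatives tried. So did the medians of DOURADOAGULHA, HUHAN3, KHAUMEO and EMATAYIN. The number of probe sets lower in every variety, 32 as reported, was 8 with arrays scaled to ACT1, 13 with log2 of the intensity plus 50 and 4 with a threshold of -1, all of them members, and it ran from 18 to 41 without replicate 1, 2 or 3 of each group. Members made up 10 of the 18 without replicate 1, 14 of the 23 without replicate 2 and 14 of the 41 without replicate 3. Scaling to ACT1, which itself had average changes of -0.23 and -0.13 in its 2 probe sets, moved the median of all probe sets to between 0.10 and 0.23, and changes are relative to that. Leaving out single arrays gave 18 to 54, with the lowest and highest value from the drought-stressed replicates 1 and 3 of EMATAYIN.

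The 9 members called lower in the average response were 31 by adjusted p alone, where 21.5% of all probe sets were lower, 5 with ACT1 scaling and 5 with the added 50. The 42 calls summed over varieties were 73 by adjusted p alone, 20 with each variety fitted alone and 8 without replicate 2 (8 to 53 over the replicates left out). The 3 members called in all varieties were 0 with each variety alone, where 4 passed at an unadjusted p under 0.05 and 2-fold, and 0 to 3 over the replicates left out, with 0 without replicate 2, where 3 passed unadjusted. The indica and japonica difference was called for 18 members by adjusted p alone and the tolerant and sensitive one for 6. The F test called 5 to 17 members over the replicates left out, the lowest without replicate 2.

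The median change moved to -0.73 in DOURADOAGULHA with the added 50, to -0.68 in HUHAN3 and -0.67 in KHAUMEO with ACT1 scaling, and over the replicates left out it ran from -1.22 to -0.57 in KHAUMEO and from -0.91 to -0.44 in EMATAYIN. The causes of these moves were not tested. No steady shared effect of the replicate number was seen, since 4 of 18 same-numbered pairs had deviations correlated above 0.1 (-0.30 to 0.20). This check cannot show whether the samples were paired by experiment. With a replicate block within a variety 9 members were called in the average response, 37 calls were summed and 3 members were called in all varieties. With the replicate block as a random effect the level tests called 5, 0 and 17. Adding 50 shrinks every change by arithmetic, most of all at low intensity. It therefore cannot show how far probe intensities near the floor limit the low members, which was not tested.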

Other observations

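Another 7 probe sets fell by 0.5 or more in each variety but had a mean log2 intensity under 5 and were not members. The largest average fall among them was that of OsAffx.9826.1.S1_at, at -1.22 with a mean log2 intensity of 4.61. The only 1 of the 7 with a RefSeq gene was LOC9266317, at -0.84 with a mean of 4.27.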
